A study of Rattus norvegicus with 9 samples.

Results

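Growth hormone acts on the liver through its receptor, Ghr, which activates the kinase Jak2 and the transcription factor Stat5b. Stat5b drives transcription of Igf1, which encodes insulin-like growth factor 1, a hormone that reaches the blood mostly from the liver, and of Igfals, the acid-labile subunit that holds IGF-1 in long-lived complexes with Igfbp3. It also induces feedback inhibitors of the receptor such as Socs2. Other binding proteins carry IGF-1 in smaller complexes, and liver Igfbp1 is repressed by insulin and rises with fasting and stress. These 10 genes (Ghr, Jak2, Stat5b, Socs2, Igf1, Igfals, Igfbp3, Igfbp1, Igfbp2 and Igfbp4) were taken by symbol from a table of read counts for 24496 genes. Each symbol matched 1 row, and all 10 were among the 11924 genes with enough counts to test.

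The liver samples came from 9 female Wistar rats aged 19 weeks, 1 library per animal. In 4 rats (degarelix+FSH) osmotic pumps delivered follicle-stimulating hormone (FSH) at 6 µg per kg per day, and in 5 rats (degarelix-only, here called vehicle) the pumps held vehicle. Every animal of both groups was put on a western diet when 10 weeks old, lost its ovaries by surgery 6 weeks later and was then given degarelix, a blocker of the gonadotropin-releasing hormone receptor. Both groups therefore lacked ovaries and had their own gonadotropin secretion suppressed. The western diet was rationed over 12 days and then unrestricted over 7 days, and a 4 h fast preceded tissue collection. The comparison addresses how FSH affects liver metabolism after ovarian function is lost.

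Libraries held 23430807 to 27008941 counts with FSH and 19295580 to 28672439 with vehicle. Values are given as CPM, counts per 1e6 counts of a library, with TMM scaling between libraries. The lowest count of any of the 10 genes was 30, for Igfbp2 in vehicle replicate 2, and the other genes had at least 121 counts in every library. Hepatocyte markers were abundant in every library, and their summed level lay between 161464 and 268125 CPM with FSH and between 185723 and 232247 CPM with vehicle. FSH replicate 1 stood apart, with 19.4% of its counts from Alb, against 10.5 to 16.7% in the other libraries.

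None of the 10 genes differed between FSH and vehicle rats at a false discovery rate (FDR, the p adjusted over all genes tested) of 0.05 in edgeR's quasi-likelihood test. The receptor and the main growth hormone outputs, Ghr, Igf1 and Igfals, each had a mean level in FSH rats within 10% of its mean in vehicle rats. The feedback inhibitor Socs2 and the binding proteins Igfbp1 and Igfbp2 had the highest fold changes, and also the widest spread between animals. Over all genes tested, 0.0335% passed FDR 0.05. DESeq2 and limma-voom, which passed 1.54% and 0.0503% of all genes, also called 0 of the 10. At an unadjusted p under 0.05 edgeR listed 3 of the 10 (Socs2, Igfbp2 and Stat5b), all with higher means in FSH rats, against a background of 11.6% of genes in either direction and 6.42% with higher means. In 0 of the 10 genes were the FSH and vehicle animals fully separated, which was the case for 4.11% of genes tested. Fold changes were positive for 7 of the 10 and negative for 3, with a median log2 fold change of 0.14, while 50.5% of all tested genes had positive values and their median was 0.00.

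**Figure D1:**
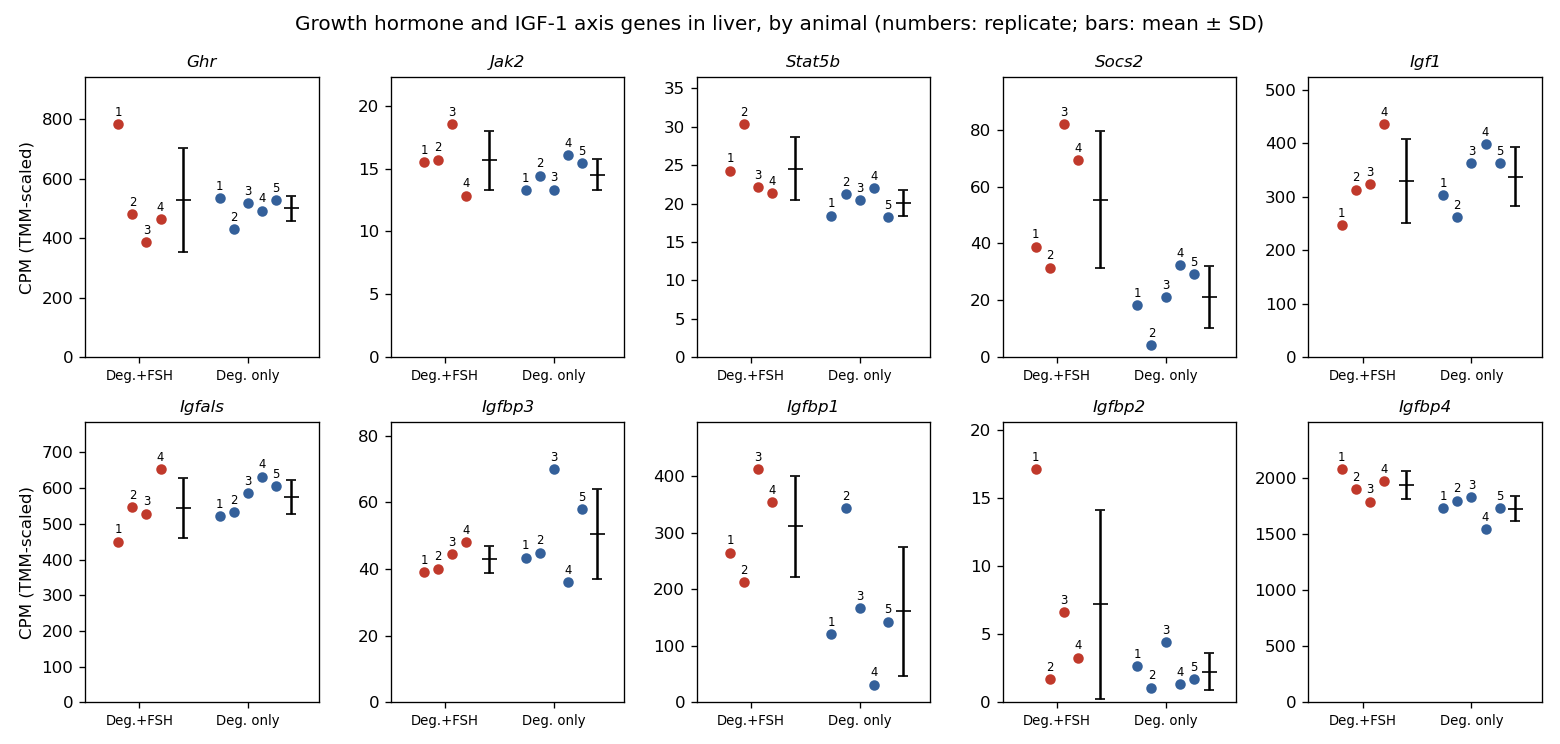
Level of each gene in each liver, in CPM on a linear axis from 0, with degarelix+FSH animals (red) left of degarelix-only animals (blue), replicate numbers beside the points, and the mean ± SD as a black bar. Socs2 reached 82.0 CPM in FSH replicate 3 and was 4.36 CPM in vehicle replicate 2, while Igfbp4 lay between 1544 and 2078 CPM in all 9 animals.

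At the start of the pathway, Ghr (ENSRNOG00000015654) stood at 784, 481, 386 and 463 CPM in FSH replicates 1 to 4. In vehicle replicates 1 to 5 it stood at 535, 432, 517, 493 and 527 CPM. FSH replicate 1 was above every vehicle animal, FSH replicate 3 was below every one, and the other FSH animals lay inside the vehicle range. Mean Ghr was 529 ± 175 CPM in FSH rats and 501 ± 41.8 CPM in vehicle rats (SD, n = 4 and 5). The log2 fold change was 0.08 with a 95% interval of −0.32 to 0.48 (edgeR FDR = 0.904). It turned to −0.17 without FSH replicate 1 and to −0.037 in limma-voom with sample quality weights.

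Jak2 (ENSRNOG00000059968), the kinase bound to the receptor's cytoplasmic tail, averaged 15.7 ± 2.33 CPM with FSH and 14.5 ± 1.24 CPM with vehicle. Its log2 fold change was 0.11 (95% interval −0.13 to 0.35, edgeR FDR = 0.747), and the groups overlapped. Stat5b (ENSRNOG00000019075), the principal transcription factor of growth hormone signalling in hepatocytes, was at 24.3, 30.4, 22.1 and 21.3 CPM in FSH replicates 1 to 4. In vehicle animals it was at 18.4, 21.2, 20.4, 22.0 and 18.2 CPM. FSH replicates 1 to 3 exceeded every vehicle animal, though replicate 3 by little, and replicate 4 lay within the vehicle range. Its log2 fold change was 0.29 (95% interval 0.04 to 0.54, edgeR FDR = 0.377), and 0.17 without FSH replicate 2. Stat5a, its close relative, averaged 9.02 CPM with FSH and 8.85 CPM with vehicle, a log2 fold change of 0.02. The 2 STAT5 genes are similar in sequence and neighbours in the genome, so reads shared between them are a source of uncertainty in both counts.

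Socs2 (ENSRNOG00000008965) limits growth hormone receptor signalling and is itself switched on by it. It stood at 38.9, 31.5, 82.0 and 69.1 CPM in FSH replicates 1 to 4. The vehicle replicates 1 to 5 had 18.3, 4.36, 21.2, 32.4 and 29.1 CPM. FSH replicates 3 and 4 were at more than any vehicle level by a wide margin, replicate 1 was a little above the highest vehicle animal, and replicate 2 lay within the vehicle range. Mean Socs2 was 55.4 ± 24.1 CPM with FSH and 21.1 ± 10.9 CPM with vehicle. The log2 fold change of 1.40 had a 95% interval of 0.36 to 2.43 (edgeR FDR = 0.321). Leaving out 1 animal at a time gave values between 1.13 and 1.60, with the lowest when vehicle replicate 2 was omitted. The adjusted p in those 9 fits ranged from 0.325 to 0.540.

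The hormone outputs did not show a difference of comparable size. Igf1 (ENSRNOG00000004517) was at 247, 314, 324 and 436 CPM in FSH replicates 1 to 4. In the vehicle rats it was at 304, 261, 363, 398 and 362 CPM. FSH animals held both the lowest and the highest Igf1 value of the 9. Mean Igf1 was 330.3 ± 78.5 CPM with FSH and 338 ± 54.4 CPM with vehicle, a log2 fold change of −0.03. The 95% interval ran from −0.40 to 0.34 (edgeR FDR = 0.963), which as a ratio is 0.756 to 1.27. The sign turned without FSH replicate 1 (0.084) or vehicle replicate 4 (0.028).

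Igfals (ENSRNOG00000015061), made by hepatocytes, was at 449.9, 547, 529 and 654 CPM in FSH replicates 1 to 4 and at 521, 533, 586, 632 and 605 CPM in vehicle replicates 1 to 5. Again the lowest and the highest animal were both FSH-treated. Its log2 fold change was −0.08 (95% interval −0.33 to 0.17, edgeR FDR = 0.834), and 0.0029 without FSH replicate 1.

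Igf1 and Igfals varied together from liver to liver. Across the 9 animals their log2 CPM gave Pearson's r = 0.93 (exact permutation p = 0.000262, adjusted p = 0.0118 over the 45 pairs of the 10 genes). Spearman's rho was 0.90 (exact permutation p = 0.00203), and no pair passed by rho after adjustment. Without FSH replicates 1 and 4, the animals farthest from the Igf1 median, r was 0.85 (exact permutation p = 0.0145, adjusted p = 0.646). Within groups r was 0.99 over the 4 FSH animals and 0.90 over the 5 vehicle animals. With group means subtracted r was 0.95 (exact permutation within groups, p = 0.00417, adjusted p = 0.188). Over all 9 animals and without that subtraction, Igf1 and Igfals were the only pair of the 45 past an adjusted p of 0.05. There 2 pairs had an unadjusted p under 0.05, about what chance gives among 45. Socs2 and Igf1 gave r = 0.47 (exact permutation p = 0.198, adjusted p = 0.826) over all 9 animals and 0.33 without the 2 farthest from the Socs2 median. Within groups it was 0.56 over the 4 FSH animals and 0.92 over the 5 vehicle animals. With group means subtracted Socs2 and Igf1 gave r = 0.72 (exact permutation within groups, p = 0.0222, adjusted p = 0.500).

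**Figure D2:**
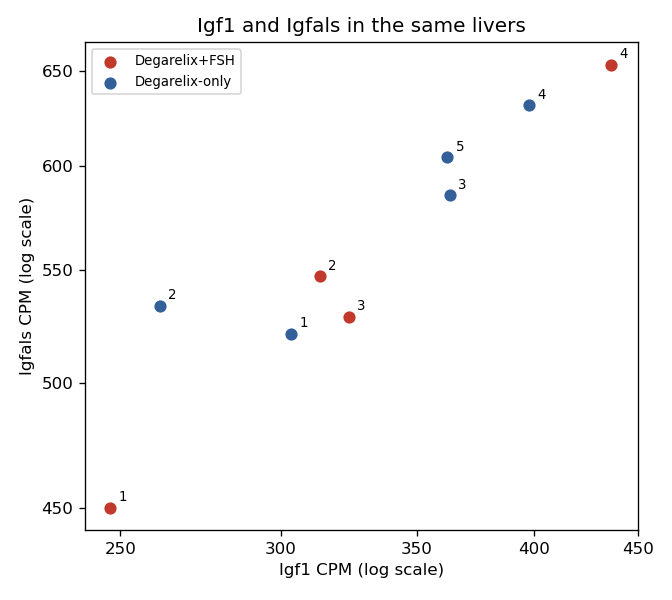
Igf1 against Igfals in the same livers, both in CPM on log axes, with 1 point per animal, degarelix+FSH in red and degarelix-only in blue, and replicate numbers beside the points. FSH replicate 1 lies lowest on both axes (247 and 449.9 CPM) and FSH replicate 4 highest (436 and 654 CPM).

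Igfbp3 (ENSRNOG00000061910), the main carrier of IGF-1 in plasma, is made in rat liver largely by non-parenchymal cells. It was at 39.1, 40.1, 44.5 and 47.9 CPM with FSH and at 43.4, 44.8, 70.0, 35.95 and 58.0 CPM with vehicle. All 4 FSH animals lay inside the vehicle range, and vehicle replicates 3 and 5 were the 2 highest of the 9. The log2 fold change was −0.23 (95% interval −0.62 to 0.15, edgeR FDR = 0.650), and −0.09 without vehicle replicate 3. Markers of non-parenchymal cells were read beside it. The summed level of 7 stellate cell and fibroblast markers was 171 to 204 CPM in FSH rats and 218 to 283 CPM in vehicle rats, with 7 of 7 fold changes negative. Endothelial markers summed to 177 to 236 CPM with FSH and 141 to 195 CPM with vehicle, with 6 of 6 positive, and Kupffer cell markers to 294 to 410.3 CPM with FSH and 153 to 467 CPM with vehicle, with 2 of 6 positive. The 3 erythroid markers summed to 119 to 485 CPM with FSH and 73.0 to 155 CPM with vehicle, with 3 of 3 positive and a median log2 fold change of 0.87. None of these markers passed FDR 0.05, and their part in the Igfbp3 values and those of the other members was not tested. In bulk liver, fewer cells of a type and less RNA per cell cannot be told apart.

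Igfbp1 (ENSRNOG00000058780) binds IGF-1 in the short term and is the binding protein most sensitive to insulin. Its promoter holds the insulin response element, to which FOXO transcription factors bind. Both promoters below are from RefSeq (GRCr8), cover 250 bases that end at the base before the listed transcription start, and are shown because they were the 2 of 9 member promoters in the table with the letters CAAAANA on either strand (capitals). Those letters occur in 17.4% of all promoter windows of this length, so a match describes the sequence and no more.
Igfbp1, chr14:86261027-86261276, plus strand: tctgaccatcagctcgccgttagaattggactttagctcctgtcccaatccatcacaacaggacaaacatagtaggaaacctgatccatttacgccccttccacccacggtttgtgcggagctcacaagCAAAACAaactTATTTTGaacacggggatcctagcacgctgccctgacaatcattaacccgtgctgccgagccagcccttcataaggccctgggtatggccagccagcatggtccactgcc
Igf1, chr7:24172282-24172531, plus strand: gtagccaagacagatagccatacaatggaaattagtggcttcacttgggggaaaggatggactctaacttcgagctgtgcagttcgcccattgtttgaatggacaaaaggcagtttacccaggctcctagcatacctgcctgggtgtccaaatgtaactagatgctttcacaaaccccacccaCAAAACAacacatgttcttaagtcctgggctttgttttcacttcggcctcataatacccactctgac
In Igfbp1 there were 2 copies, beginning 121 and 110 bases before the start on opposite strands, and in Igf1 there was 1, beginning 67 bases before it. The motif TTCNNNGAA, to which STAT5 binds, was in 0 of the 9 promoters and in 7.67% of all promoters. With so low a share, 0 of 9 is no result about these genes, and sites outside the 250 bases were not searched. The 9 do not include Socs2, whose promoter was not analysed here. The table lists 1 start per gene, and the reads do not show which start was used in these livers.

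Igfbp1 stood at 264, 213, 412 and 354 CPM in FSH replicates 1 to 4. In vehicle replicates 1 to 5 it stood at 120.2, 343, 167, 31.3 and 143 CPM. All 4 FSH animals were above the vehicle mean, but only replicates 3 and 4 were above vehicle replicate 2. Vehicle levels spanned 11.0-fold and FSH levels 1.94-fold. Mean Igfbp1 was 311 ± 89.4 CPM with FSH and 161 ± 114 CPM with vehicle, a log2 fold change of 0.95. Its 95% interval was −0.15 to 2.05 (edgeR FDR = 0.501). Without vehicle replicate 2 the value was 1.43, and without vehicle replicate 4 it was 0.68. In limma-voom with all animals it was 1.37.

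Igfbp2 (ENSRNOG00000016957), a binding protein that is abundant in fetal liver and low in adult liver, was at 17.1, 1.70, 6.63 and 3.28 CPM with FSH. Vehicle animals had 2.67, 1.08, 4.42, 1.34 and 1.70 CPM. FSH replicates 1 and 3 were above every vehicle animal, and replicates 2 and 4 were within the vehicle range. The log2 fold change was 1.67 (95% interval 0.29 to 3.06, edgeR FDR = 0.363). Without FSH replicate 1 it was 0.79 (edgeR FDR = 0.674), and in limma-voom with all animals it was 1.09.

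Igfbp4 (ENSRNOG00000010635), which in other tissues mostly restrains IGF-1 action, was at 2078, 1896, 1788 and 1970 CPM in FSH replicates 1 to 4. It was at 1729, 1794, 1825, 1544 and 1730 CPM in vehicle replicates 1 to 5. FSH replicates 1, 2 and 4 were above all vehicle animals, and replicate 3 was inside their range. With means of 1933 ± 122 CPM and 1725 ± 109 CPM in the FSH and vehicle groups, the log2 fold change was 0.16 (95% interval −0.02 to 0.35, edgeR FDR = 0.497). Igfbp1 and Igfbp4 gave r = 0.76 across the 9 animals (exact permutation p = 0.0230, adjusted p = 0.516). The sign differed between groups, with r = −0.43 over the 4 FSH animals and 0.92 over the 5 vehicle animals. With group means subtracted it was 0.60 (exact permutation within groups, p = 0.144, adjusted p = 0.685).

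**Figure D3:**
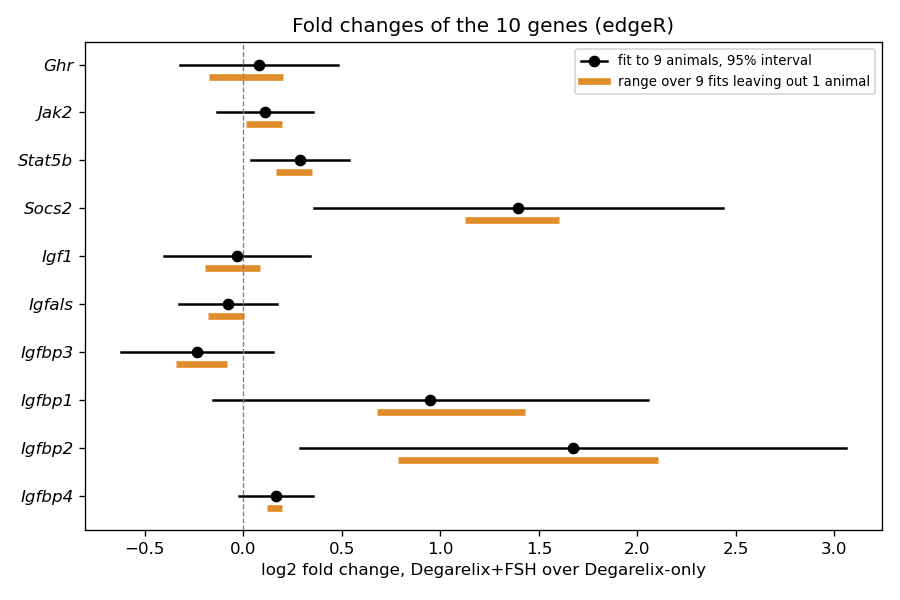
Log2 fold change of each gene, degarelix+FSH over degarelix-only, as black points with 95% intervals from edgeR, and in orange the range over 9 fits with 1 animal omitted in each. Intervals lie above 0 for Stat5b, Socs2 and Igfbp2, span 0 for the other genes, and are widest for Socs2, Igfbp1 and Igfbp2.

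The 10 genes differed in how far animals of the same group lay apart. The within-group SD of log2 CPM was 1.09 for Igfbp2, 0.99 for Igfbp1 and 0.97 for Socs2, above 99.1%, 98.7% and 98.6% of all genes tested. Among genes of similar level (within 1 log2 unit), Igfbp1 exceeded 99.3% of 921 genes and Socs2 exceeded 99.6% of 3684. Igf1, Ghr and Igfbp3 had SDs of 0.29, 0.30 and 0.30, Igfals, Jak2 and Stat5b 0.17 each, and Igfbp4 0.09, the lowest of the 10. The median over all tested genes was 0.20.

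**Figure D4:**
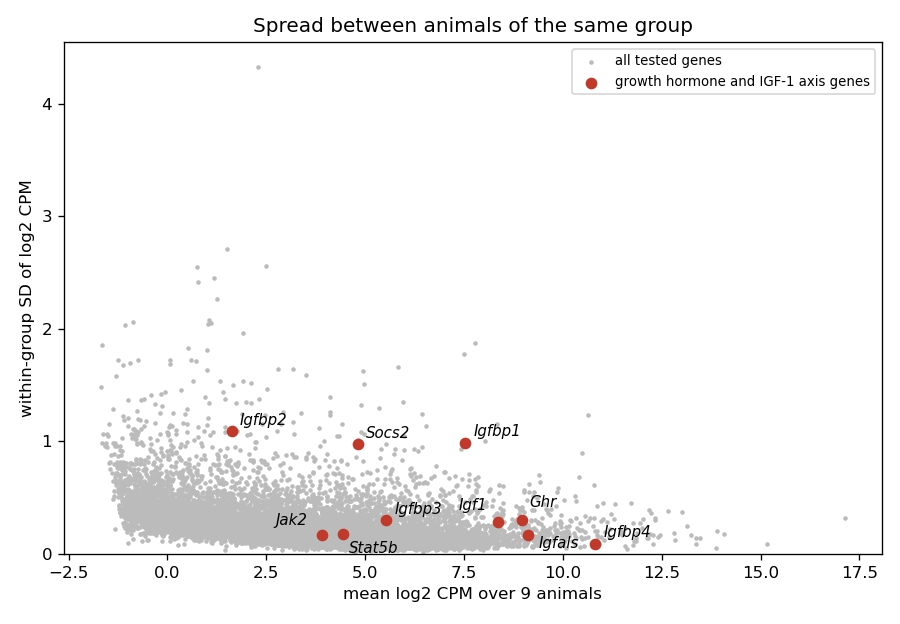
Within-group SD of log2 CPM against mean log2 CPM over 9 animals, with all 11924 tested genes in grey and the 10 genes in red. Igfbp2, Socs2 and Igfbp1 lie near an SD of 1, while Igfbp4 lies at 0.09.

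Other genes of growth hormone and JAK-STAT signalling were read from the same fit. Of 18 genes listed, 16 could be tested. None passed FDR 0.05 in edgeR, DESeq2 or limma-voom, and 4 had an unadjusted p under 0.05 in edgeR, all with higher means in FSH rats, against 11.6% of all genes in either direction and 6.42% with higher means. Fold changes were positive for 13 and negative for 3, with a median of 0.10. The smallest p-values belonged to Cish, Socs3 and Irs2. Cish, a feedback inhibitor of the same family as Socs2 and another direct STAT5 target, was at 103, 85.8, 110.4 and 116 CPM with FSH. Vehicle animals had 54.1, 11.6, 14.2, 70.3 and 55.7 CPM. Every FSH animal was above every vehicle animal, a separation seen for 1 of the 16 genes and for 4.11% of all genes. The log2 fold change of Cish was 1.34 (standard error 0.47, edgeR FDR = 0.350). Socs3, an inhibitor induced by cytokine receptors, had 0.96 (standard error 0.35, edgeR FDR = 0.353), and Irs2, an adaptor of the insulin receptor, 0.94 (standard error 0.39, edgeR FDR = 0.397). Grb2, an adaptor present in most cells, was listed with at most 4 counts in a library, so a low count in this table need not mean a low level.

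Of 14 further genes of the IGF system, 7 could be tested, and none passed FDR 0.05 in edgeR, DESeq2 or limma-voom, while 2 had an unadjusted p under 0.05 in edgeR, against 11.6% of all genes. Fold changes were positive for 3 and negative for 4. Insr, the insulin receptor, had a log2 fold change of 0.30 (standard error 0.11, edgeR FDR = 0.363). Igfbp7, a related secreted protein abundant in vascular endothelium, had −0.19 (standard error 0.08, edgeR FDR = 0.401), and Igfbp6, which prefers IGF-2, had −0.61 (standard error 0.33, edgeR FDR = 0.515). Igfbp6 was near the count filter, at 0.674 and 1.02 CPM in FSH and vehicle rats and 8 counts in FSH replicate 1. Its log2 fold change was −0.38 without that animal. The IGF-1 receptor, Igf1r, was below the count filter, with at most 5 counts in a library.

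Liver genes that follow the pattern of growth hormone secretion in rats numbered 15, of which 9 could be tested. In edgeR none passed FDR 0.05 and 2 had an unadjusted p under 0.05, against 11.6% of all genes. Fold changes were positive for 5 and negative for 4. A1bg, a plasma protein gene more active in female rat liver, was at 3076, 2489, 1362 and 2565 CPM with FSH. It was at 878, 1041, 367, 1596 and 1090 CPM with vehicle. FSH replicate 3 lay inside the vehicle range, and the log2 fold change was 1.25 (standard error 0.36, edgeR FDR = 0.258). A1bg passed in DESeq2 (adjusted p = 0.0216) but not in limma-voom (adjusted p = 0.271). Onecut1, a hepatocyte transcription factor induced by growth hormone, had 1.27 (standard error 0.43, edgeR FDR = 0.333), and the male-type cytochrome gene Cyp2c13 had −0.67 (standard error 0.34, edgeR FDR = 0.485). Cyp2c13 was at 1.07 and 1.71 CPM in FSH and vehicle rats, and has close relatives that may share its reads. Onecut1 in FSH replicate 2 (3.61 CPM) lay inside the vehicle range, and its log2 fold change was 0.89 in limma-voom. Cyp2c12 and Cux2, also on this list, had log2 fold changes of 0.08 (edgeR FDR = 0.863) and −0.03 (edgeR FDR = 0.942). The genes named first were those with the smallest p, so they do not stand for the list.

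Genes regulated alongside Igfbp1 by insulin, fasting or stress numbered 15, of which 14 could be tested. None passed FDR 0.05 in edgeR, while 5 with higher and 1 with lower means in FSH rats had an unadjusted p under 0.05, against 11.6% of all genes in either direction. Irs2, among the 5, is also on the growth hormone and JAK-STAT list and was counted there too. Fold changes were positive for 12 and negative for 2, with a median of 0.21. FSH and vehicle animals were fully separated for 3 of the 14, against 4.11% of all genes. Fgf21, a fasting-induced hormone that in mice opposes growth hormone action in the liver, averaged 10.6 CPM with FSH and 5.71 CPM with vehicle. Its log2 fold change was 0.90 (standard error 0.23, edgeR FDR = 0.219). Fgf21 passed in DESeq2 (adjusted p = 0.0222) but not in limma-voom (adjusted p = 0.200). Foxo1, the factor that binds the insulin response element of Igfbp1, averaged 17.8 and 14.2 CPM in FSH and vehicle rats (log2 fold change 0.33, standard error 0.11, edgeR FDR = 0.321). Tat, a tyrosine aminotransferase induced by glucocorticoids, averaged 959 CPM with FSH and 1768 CPM with vehicle (−0.88, standard error 0.31, edgeR FDR = 0.340).

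Single animals stood at the extremes of several genes at once. Vehicle replicate 2, picked out after its values were seen, had the lowest Socs2, Cish and Irs2 of the 9 animals (4.36, 11.6 and 10.2 CPM). The same liver had the highest vehicle Igfbp1 (343 CPM) and the highest Tat of all 9 (3116 CPM, next 1628 CPM). Its Fgf21, the fasting-induced hormone, was the lowest of the 9 (3.49 CPM). So were its Socs3, Onecut1, Insr and Igfbp2 (2.30, 2.09, 34.4 and 1.08 CPM). Vehicle replicate 4 combined the lowest Igfbp1 of the 9 animals (31.3 CPM) with the highest vehicle Socs2 and Cish (32.4 and 70.3 CPM). Without vehicle replicate 2 the log2 fold change of Cish was 1.09 and that of Tat −0.58. FSH replicate 1, the library with 19.4% of its counts from Alb, had the highest Ghr, Igfbp2 and Igfbp4 of the 9 animals (784, 17.1 and 2078 CPM). Its Igf1 and Igfals were the lowest of the 9 (247 and 449.9 CPM). Of the named list genes, Insr, A1bg, Onecut1, Irs2, Fgf21 and Foxo1 were also highest in that liver, and Igfbp6 and Cyp2c13 lowest.

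**Figure D5:**
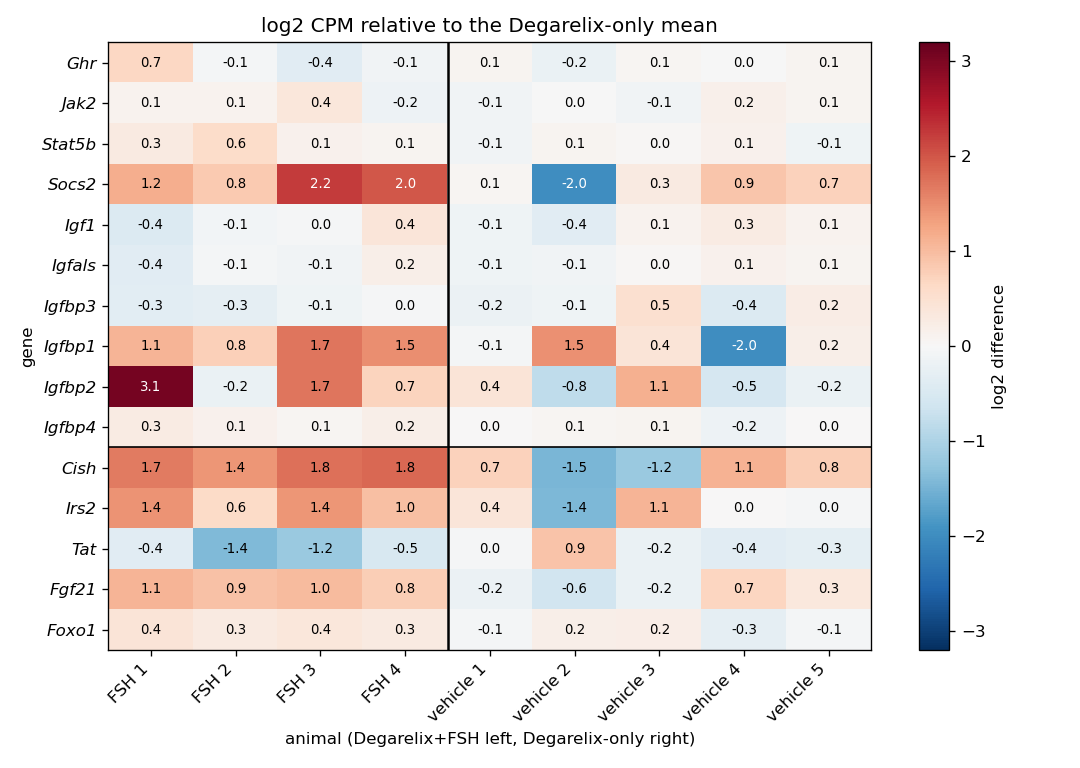
Log2 CPM of each gene in each animal minus the degarelix-only mean of that gene, with the 4 degarelix+FSH animals left of the line and the 5 degarelix-only (vehicle) animals right of it. The 10 genes are above the line across the picture and 5 genes from the other lists below it. Socs2 is at 2.2 in FSH replicate 3 and −2.0 in vehicle replicate 2, and Cish is above 1.3 in all 4 FSH animals.

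Genes whose levels followed these members most closely were ranked among 10278 genes with a mean of at least 1 CPM, by Pearson's r of log2 CPM over the 9 animals. For Igf1 they were Tln2 (r = 0.95), Gemin8 (0.93) and Itgb3bp (0.93). The closest to Igfbp1 were Utp15 (0.97), Sec14l2 (0.94) and Polrmt (0.93). For Socs2 the list ran Cep135 (0.98), Hyal2 (0.97) and Cldn2 (0.96). Being the highest of so many over so few animals, these values describe likeness only, and no p is given.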

How the data were processed

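Messenger RNA from snap-frozen liver was sequenced as strand-specific paired-end libraries, per the labels' protocols. The authors deposited raw counts of reads per gene, 1 column per animal. STAR, edgeR, DESeq2 and rn6 appear in the submitters' processing notes with no role or version, and neither an annotation nor a strand setting is given in the sources used here. Libraries of 4 FSH and 5 vehicle rats entered 1 model in edgeR 4.0.16 (R 4.3.3) with a 2-sided quasi-likelihood F-test, trimmed mean of M values (TMM) scaling and a group-wise filter on low counts. The FDR is a Benjamini-Hochberg adjusted p over all 11924 genes that passed that filter. Standard errors are the fold change divided by the root of F, and 95% intervals come from the t distribution with the fit's degrees of freedom. Log2 CPM used a prior count of 2. Correlations used exact permutation, 2-sided. The members and gene lists were chosen with earlier results of these data known. From each list the 3 genes with the smallest p are named, since none had more past the threshold. Stat5a, Grb2, Igf1r, Cyp2c12 and Cux2 are given beside them. Some listed genes were not analysed here. The fit was also tested on simulated data. Library pairs within a group differed beyond counting noise (chi-square per degree of freedom 27.3 to 157). Alternatives were DESeq2 1.42.0, limma-voom (limma 3.58.1) with sample quality weights, DESeq2-type size factors, library totals, no filter, at least 1 CPM in 4 samples, a replicate block, FDR 0.10 and leaving out each animal. RefSeq gene names matched all 10 members, and 9 had a promoter sequence.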

Additional observations from a re-analysis of the deposited data

Results flagged for a closer look

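Dixon's criterion, which sets the gap between an extreme animal and its nearest neighbour against the whole range of its group, was applied to 44 sets of values, those of the 10 genes and of the named genes from the lists. In 2 of them 1 animal stood apart, where chance gives about 2.2. Tat was at 3116 CPM in vehicle replicate 2, with the next vehicle animal at 1628 CPM. Igfbp7 was at 47.6 CPM in vehicle replicate 5, next 41.9 CPM. None of the 10 genes gave such a value in either group.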

How the results depend on the processing

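None of the settings tried in edgeR, DESeq2 or limma-voom brought any of the 10 genes past FDR 0.05, nor did any pass FDR 0.10 in edgeR, and 2 to 3 of the 10 had an unadjusted p under 0.05 in the fits without 1 animal. Over all genes, 4 passed in edgeR, 184 in DESeq2 and 12 at FDR 0.10. Leaving out 1 animal gave 0 to 4 genes, with 1100 to 1449 at an unadjusted p under 0.05. In limma-voom the log2 fold change of Ghr turned to −0.037, that of Igfbp2 fell from 1.67 to 1.09 and that of Igfbp1 rose from 0.95 to 1.37. Which members had an unadjusted p under 0.05 depended on the method. Socs2 and Stat5b did in edgeR, DESeq2 and limma-voom. Igfbp2 did in edgeR and DESeq2 but not in limma-voom, Igfbp1 only in limma-voom and Igfbp4 only in DESeq2. Over the fits without 1 animal, the log2 fold change of Ghr lay between −0.17 and 0.20, that of Igf1 between −0.20 and 0.084 and that of Igfals between −0.18 and 0.0029. In total 194 of 198 fold changes in those fits, and 150 of 153 under the other settings, kept direction and side of the threshold. None of these genes passed in edgeR with all animals, so staying on that side says little about the size of a fold change. Igfbp2 counted as kept although its log2 fold change fell from 1.67 to 0.79 without FSH replicate 1. A1bg and Fgf21 passed in DESeq2, which passed 1.54% of all genes, but not in limma-voom. The number of correlated pairs past an adjusted p of 0.05 was 1 over all animals, 2 with CPM from library totals, 0 after subtracting group means (2 unadjusted) and 0 without the 2 animals farthest from the median (3 unadjusted). The pair added with library totals was Igfbp1 and Igfbp4 (r = 0.86; with TMM scaling r was −0.43 over the FSH animals alone). The cause was not tested. Over all genes, same-numbered animals deviated from their group means with correlations of −0.04 to 0.04. That gives no sign of pairing by replicate number, but cannot exclude it for some genes. With a replicate block, which leaves out vehicle replicate 5, 5 genes passed, none of them among the 10. Socs2 had a log2 fold change of 1.71 in that fit (standard error 0.30, edgeR FDR = 0.249). With 4 and 5 animals, the intervals of Socs2, Igfbp1 and Igfbp2 span more than 2 log2 units, so differences of moderate size in these 3 genes were not resolvable.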
